A study of Mus musculus with 12 samples.

Results

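The 10 iron handling genes described here are Hamp, Hamp2, Bmp6, Tfr2, Trf, Tfrc, Fth1, Ftl1, Slc40a1 and Cp. They were chosen by gene symbol, and each had its own row among the 55450 rows of the count table. The table held 12 total RNA libraries, 3 from each of 4 groups of male mice aged 7 to 9 weeks: wild-type brain, Vaultrc5-/- brain, wild-type liver and Vaultrc5-/- liver. Vaultrc5 encodes a small non-coding vault RNA, and the study asked whether mice develop without it. The genotype labels call the controls wild type, while their titles read flx. The labels name no strain, and they do not say whether a brain and a liver library, or libraries with the same number, came from the same animal, so p-values measure only the spread between these libraries. RNA came from brains and livers, which hold many cell types, so fewer cells of a type and less RNA per cell cannot be told apart.

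Mammals have no regulated route to excrete iron, so its level in the body is set by absorption, recycling and storage, and the liver is the organ that senses and governs it. Hepatocytes secrete hepcidin, a peptide hormone that binds the iron exporter ferroportin and has it degraded, and bone morphogenetic protein signals and interleukin 6 both induce it. Inside cells, iron regulatory proteins bind a stem-loop called the iron-responsive element: in a 5′ UTR the bound protein blocks translation, and in a 3′ UTR it protects the mRNA from decay. The brain sits behind the blood-brain barrier and takes up iron through its own endothelium.

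An iron-responsive element match was found in 4 of the 10 genes, and the elements are shown because they tie storage, export and uptake to the same regulators. The search required an unpaired C, a stem of 5 pairs (G-T pairs allowed) and the loop CAGTGN in an annotated UTR of a protein-coding transcript (GENCODE M21, GRCm38), on the transcript strand. At least 1 such match was present in 0.136% of the 20546 genes with a 5′ UTR and in 0.607% of the 20920 with a 3′ UTR. Fth1 and Ftl1 (the heavy and light ferritin chains, which store iron) and Slc40a1 (ferroportin) held the element in the 5′ UTR, and Tfrc (transferrin receptor 1, which takes up iron) held 4 in the 3′ UTR. The capitals mark the loop, and each line runs 5′ to 3′ on the strand of its gene.
Fth1 5′ UTR, chr19:9982732-9982760, plus strand: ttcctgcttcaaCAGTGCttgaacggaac
Ftl1 5′ UTR, chr7:45459779-45459807, minus strand: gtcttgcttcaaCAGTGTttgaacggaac
Slc40a1 5′ UTR, chr1:45925465-45925493, minus strand: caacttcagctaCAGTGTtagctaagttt
Tfrc 3′ UTR, chr16:32631219-32631247, plus strand: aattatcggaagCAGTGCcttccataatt
Tfrc 3′ UTR, chr16:32631598-32631626, plus strand: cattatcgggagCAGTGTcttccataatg
Tfrc 3′ UTR, chr16:32631663-32631691, plus strand: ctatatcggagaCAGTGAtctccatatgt
Tfrc 3′ UTR, chr16:32631710-32631738, plus strand: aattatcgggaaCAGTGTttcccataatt
The other 6 genes held no match to these letters in their annotated UTRs.

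The hepcidin genes are shown next because Hamp and Hamp2 are neighbouring copies on chromosome 7 (30942368 to 30944032 and 30922372 to 30924681, both on the minus strand) that share reads. Their main transcripts, of 410 and 420 bases, were 92.6% identical when aligned, and the 250 bases upstream of their starts were 89.7% identical (RefSeq, GRCm38.p6). Starts are those of RefSeq: for Hamp2 it is 30924181, which 2 of its 3 GENCODE transcripts share, while the third begins 500 bases further upstream, so the Hamp2 window lies within the span given above. The windows below cover 80 bases and are placed on a site that both promoters hold. Capitals mark GGCGCC, the core of the element through which bone morphogenetic proteins act, and TTCTTGGAA, a site of the kind bound by STAT3, which interleukin 6 activates.
Hamp, chr7:30944087-30944166, minus strand: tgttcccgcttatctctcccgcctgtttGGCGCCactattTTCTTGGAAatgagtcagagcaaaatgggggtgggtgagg
Hamp2, chr7:30924236-30924315, minus strand: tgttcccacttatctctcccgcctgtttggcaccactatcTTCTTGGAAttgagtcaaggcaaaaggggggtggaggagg
Over the window 71 of 80 bases were the same. Counted from 1 at the 5′ end of the window, with the Hamp base first, the substitutions were G8A, G32A, T40C, A50T, G58A, A59G, T66G, G75A and T76G, and G32A lies inside the GGCGCC letters of Hamp. GGCGCC was found 109 to 104 bases upstream of the Hamp start and nowhere in the 250 bases upstream of that Hamp2 start, searched on both strands, and 9.59% of 32851 mouse promoters of that length held it. TTCTTGGAA stood 97 to 89 bases upstream of Hamp and 94 to 86 bases upstream of Hamp2, and 0.365% of the promoters held it.

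The brain libraries held 14844971 to 18567381 counts each, and the liver libraries 23247449 to 27155480. Vaultrc5 itself had 33, 39 and 48 counts in the wild-type livers, 4, 1 and 4 in the wild-type brains and 0 in all 6 knockout libraries. The hepatocyte gene Alb had at most 5 counts in a brain library and at least 714287 in a liver library, and the neuronal gene Snap25 at most 3 counts in liver and at least 31003 in brain. Levels are given below as CPM, counts scaled by effective library size over all 12 libraries, where 3 counts, taken as the floor, are 0.123 to 0.148 CPM in brain and 0.150 to 0.169 CPM in liver.

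Knockout liver replicate 2 stood apart from the other 5 liver libraries, and the genotype difference in liver and the tissue difference in knockout are given below with and without it for each of the 10 genes. It held the lowest Hamp, Hamp2 and Bmp6 and the highest Tfrc, Trf, Tfr2 and Cp of the 6 livers. The summed level of 16 interleukin 6 and acute-phase genes was 32130 CPM there against 14301 to 15733 CPM in the other livers, and 13 of the 15 with a mean of at least 1 CPM had their highest value in it. All 8 Kupffer cell markers (genes of the liver macrophage) were also highest in that library, with a sum of 519 CPM against 212 to 296 CPM. The sum of 8 hepatocyte markers was lowest there, at 80332 CPM against 96005 to 116025 CPM. Of single genes picked after their values were seen, the acute-phase gene Saa1 stood at 1865 CPM against 11.3 to 214 CPM, and Id1, a target of bone morphogenetic protein signals, at 1.30 CPM against 3.63 to 8.28 CPM. The part of these differences in the values of the iron genes was not tested. The summed level of 6 red blood cell markers was 35.8 to 53.4 CPM in the knockout livers and 15.4 to 32.0 CPM in the wild-type livers. Of the 5 tested singly, 0 passed the adjusted threshold and 2 had an unadjusted p under 0.05, the sum itself was not tested, and the part of these cells was not tested either.

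In wild-type mice 8 of the 10 genes were higher in liver, Tfrc was higher in brain, and Bmp6 did not pass the test (edgeR quasi-likelihood F-test, Benjamini-Hochberg adjusted p under 0.05 over all genes tested). Hamp and Hamp2 passed the filter on low counts through liver alone, so their direction was fixed by it. Knockout mice gave the same calls for each of the 10 genes, also without knockout liver replicate 2. Across all 18850 genes tested in wild type 78.6% were called, 43.9% with the higher level in brain and 34.7% in liver. In knockout, with 18785 genes tested, the shares were 78.7%, 43.5% and 35.2%. The median log2 difference, brain minus liver, was -5.55 over the 10 genes and 0.21 over all genes in wild type, and -5.55 and 0.21 in knockout (-5.70 over the 10 without knockout liver replicate 2). With Hamp and Hamp2 set at the bound that the count floor allows in wild-type brain, the median of the 10 stayed at -5.55. It could not move, since both genes remain below those in the middle, Trf (-6.17) and Ftl1 (-4.92). Over the other 8 genes the wild-type median lies between Ftl1 (-4.92) and Slc40a1 (-4.54). With library totals in place of TMM the median of all genes moved from 0.21 to 1.05 in wild type and to 1.08 in knockout. That scaling also moved the wild-type calls from 8275 higher in brain and 6542 higher in liver to 11635 and 3997, and the knockout calls from 8178 and 6611 to 11668 and 3871. Apart from Hamp and Hamp2, it moved each member's log2 difference towards brain by 0.83 to 0.85 in wild type and by 0.88 to 0.89 in knockout, a factor of 1.78 to 1.80 and of 1.83 to 1.86 in the folds given below. Among the 10 genes it changed the call of Fth1 in both genotypes and of Bmp6 in knockout only, as given below.

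Between knockout and wild type none of the 10 genes passed the test in either tissue. In brain 8 of them passed the filter on low counts (Hamp and Hamp2 did not), and the calls over all 18075 genes tested were 0%. No member reached an unadjusted p under 0.05 in brain, where 0.675% of all genes did (122 genes), and their unadjusted p-values ran from 0.101 to 0.822. In liver all 10 passed the filter, and the calls over all 15329 genes tested were again 0%. No member reached an unadjusted p under 0.05 in liver, where 3.5% of all genes did (536 genes), and the members' p-values ran from 0.145 to 0.981. DESeq2 called 0 genes in brain and 10 in liver, none of them a member. The median size of the log2 difference was 0.136 over the 8 members and 0.0953 over all genes in brain, and 0.126 over the 10 members and 0.119 over all genes in liver. A difference of the knockout effect between the tissues, tested by the interaction term, passed for none of the 10 genes (unadjusted p 0.124 to 0.963) and for 0% of all 20141 genes after adjustment, while 2.43% of all genes had an unadjusted p under 0.05 (489 genes, no member).

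**Figure D1:**
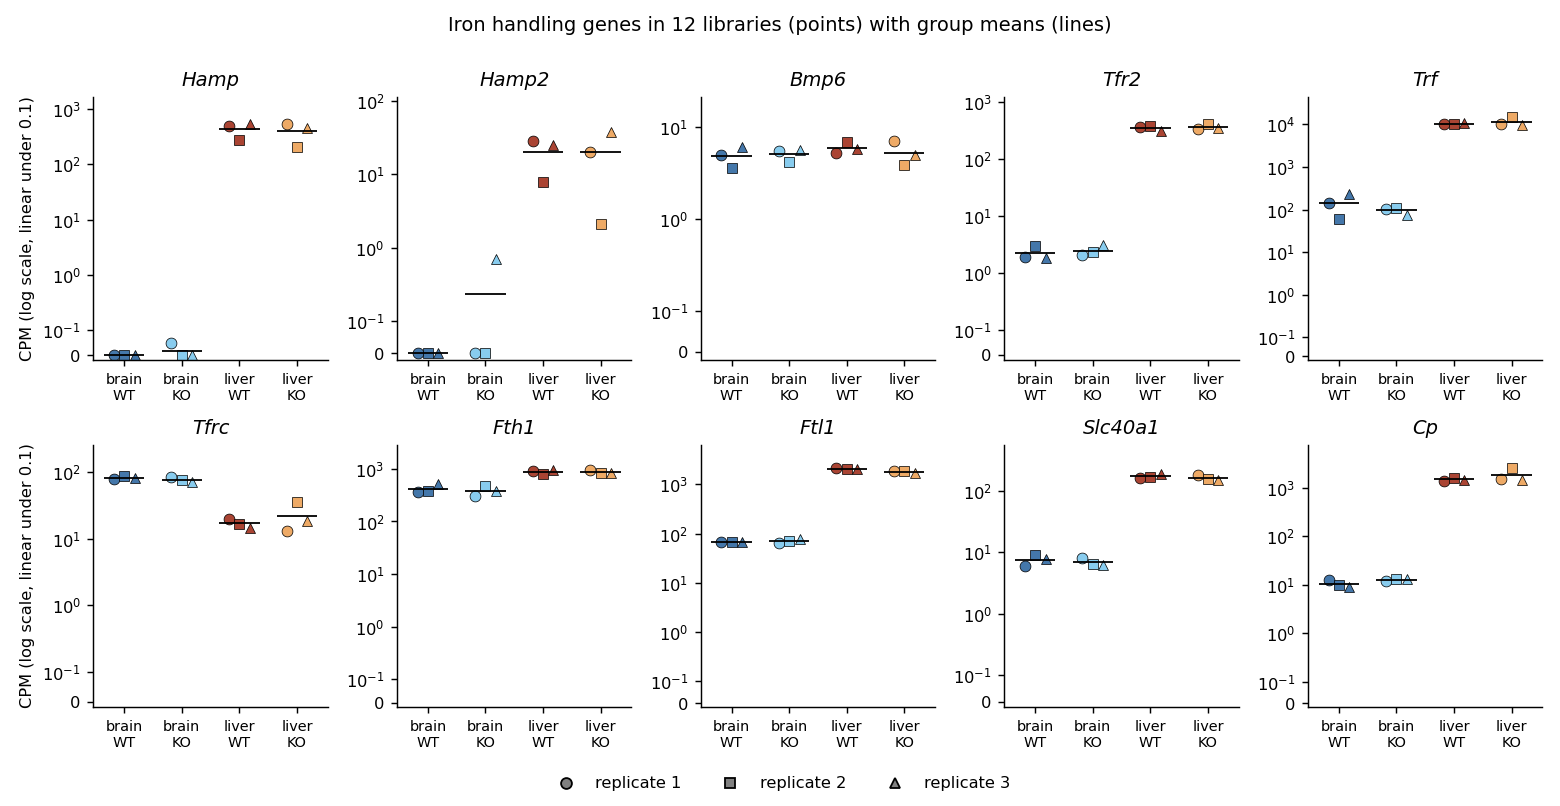
CPM of the 10 iron handling genes in each of the 12 libraries (log scale that turns linear under 0.1), with points for libraries, shapes for replicate numbers and lines for the means of 3. Tfrc lies higher in brain, Bmp6 overlaps between the tissues, and the other 8 genes lie higher in liver. Within a tissue the wild-type and knockout points of each gene overlap, apart from liver Ftl1.

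Hamp, which encodes hepcidin, was a liver transcript. The wild-type livers held 486, 269.7 and 538 CPM and the knockout livers 535, 202 and 449 CPM. Replicate 2 was the lowest library of each genotype, and the genotypes overlapped. In brain the gene had 0 counts in 5 libraries and 1 count in knockout replicate 1, so in wild type it was at least 3368-fold lower in brain than in liver, against a floor of 3 counts per library (edgeR adjusted p = 5.60e-06; at least 1884-fold with library totals). In knockout the ratio of liver to brain rested on that 1 count and was 25776 (95% counting interval 4626 to 1018140), and 31914 without knockout liver replicate 2 (5727 to 1260585) or 14263 with library totals. This ratio and the wild-type bound stand on different bases and are not compared. Between knockout and wild-type liver the log2 difference was -0.12 ± 0.42 (SE, n = 3 a group; edgeR adjusted p = 0.997), with a 95% interval from -1.16 to 0.91. Without knockout replicate 2 it was 0.19. A fit with the replicate number as a block gave -0.17 ± 0.12 (edgeR unadjusted p = 0.194, adjusted p = 0.843).

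Hamp2, the second mouse hepcidin gene, lay far below Hamp and varied more. The wild-type livers held 28.3, 7.87 and 25.3 CPM and the knockout livers 20.2, 2.09 and 37.7 CPM. Replicate 2 was again the lowest library of each genotype, and the highest liver was 18.1 times the lowest, a larger ratio than that of 99.5% of 13875 liver genes. The wild-type brains had 0 counts, which puts brain at least 160-fold below liver (edgeR adjusted p = 0.000229; at least 89.5-fold with library totals). The knockout brains had 0, 0 and 15 counts, and the library with 15 had 0 counts of Hamp. The ratio of knockout liver to brain was 86.3 (95% counting interval 52.1 to 155; edgeR adjusted p = 0.00411), and 124 without knockout liver replicate 2 (74.5 to 221) or 47.7 with library totals. All 15 brain counts came from knockout brain replicate 3, and without it brain was at least 142-fold below liver, against the floor of 3 counts per library (edgeR adjusted p = 0.0102). The genotypes differed in liver by a log2 value of -0.03 ± 1.02 (edgeR adjusted p = 0.9995), with an interval from -2.64 to 2.59, and by 0.51 without knockout replicate 2. A fit with the replicate number as a block gave -0.39 ± 0.57 (edgeR adjusted p = 0.919). Hamp2 took 1.02% to 7.75% of the reads of the pair in the liver libraries. The deposited counts of Hamp were fractions in all 6 livers while the sum of both genes was within 0.02 of a whole number in 5 of 6, so the division between them is an estimate by the authors' counting.

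Bmp6, the ligand that liver endothelial cells release when iron is plentiful and that induces hepcidin, was low in both tissues, with overlapping levels. The wild-type brains held 4.96, 3.57 and 6.03 CPM and the wild-type livers 5.24, 6.78 and 5.71 CPM. The knockout brains held 5.44, 4.19 and 5.65 CPM and the knockout livers 7.00, 3.83 and 4.94 CPM. Brain and liver overlapped in both genotypes. The log2 difference, brain minus liver, was -0.28 ± 0.24 in wild type (edgeR adjusted p = 0.308, interval -0.83 to 0.27) and -0.06 ± 0.26 in knockout (adjusted p = 0.839, interval -0.68 to 0.56), or -0.27 in knockout without liver replicate 2. Library totals turned the direction, to 0.57 in wild type (edgeR adjusted p = 0.0634; 0.0634 to 0.399 over the alternatives) and to 0.81 in knockout (0.0240; 0.0240 to 0.918), where the gene then counted as higher in brain. The genotype difference, knockout minus wild type, was 0.06 ± 0.24 in brain and -0.16 ± 0.23 in liver, and 0.01 in liver without knockout replicate 2.

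Tfr2, transferrin receptor 2, is a hepatocyte sensor of iron-loaded transferrin and acts upstream of hepcidin. Its liver level varied 1.29-fold from lowest to highest library, at 366, 380.2 and 312 CPM in wild type and 336, 404 and 343 CPM in knockout. The brains held 1.90, 2.91 and 1.80 CPM in wild type and 2.03, 2.29 and 3.03 CPM in knockout. No brain library came near a liver library: Tfr2 was 159-fold lower in brain in wild type (log2 difference -7.31 ± 0.23, edgeR adjusted p = 1.22e-07) and 148-fold lower in knockout (142-fold without liver replicate 2). Knockout minus wild type was 0.14 ± 0.28 in brain and 0.04 ± 0.12 in liver, with a 95% interval in liver from -0.25 to 0.33, and -0.05 in liver without knockout replicate 2.

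Trf, transferrin, carries iron in plasma and is made by hepatocytes and, in brain, by oligodendrocytes and the choroid plexus. It had the highest CPM of the 10 genes in every liver, at 10379.6, 10332 and 10769.7 CPM in wild type and 10139, 14574 and 9447 CPM in knockout. Knockout replicate 2 was the highest of these, and the other 5 livers lay close together. The brains held 143, 60.1 and 234 CPM in wild type and 104, 110.04 and 75.9 CPM in knockout, with the highest and the lowest brain both among the wild types. Trf was 71.8-fold lower in brain than in liver in wild type (log2 difference -6.17 ± 0.53, edgeR adjusted p = 1.93e-05) and 119-fold lower in knockout (log2 difference -6.89 ± 0.32, edgeR adjusted p = 8.84e-07; 104-fold without liver replicate 2). Between genotypes the liver value was 0.13 ± 0.20, knockout minus wild type, and -0.10 without knockout replicate 2. In brain it was -0.61 ± 0.45 (edgeR adjusted p = 1.00), with an interval from -1.68 to 0.47, and -0.07 without wild-type replicate 3. Part of the Trf exons (2108 bases) is shared on the same strand with the gene model Gm20425, which took 3.84% to 8.55% of the reads of the 2 genes in brain and 0.0433% to 0.126% in liver.

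Trf varied widely among the brains, and it is set here beside markers of the cell types known to make it. Its highest brain was 3.89 times its lowest, against a median ratio of 1.44 over 15873 brain genes. The summed CPM of 8 oligodendrocyte markers was 2738, 1689 and 5658 in the wild-type brains and 1989, 3129 and 1890.1 in the knockout brains, and none of the 8 was at 0. Over the 6 brains Trf followed this sum, both on a log scale, with Pearson r = 0.929 (two-sided exact permutation p = 0.00694, 0.0139 adjusted over the 2 relations computed) and Spearman rho = 0.943 (exact permutation p = 0.0167, adjusted 0.0333). Without wild-type replicates 2 and 3, the farthest from the median of the sum on the log scale, r was 0.694 over 4 libraries. Each genotype has 3 brains, too few for a value within genotype. The choroid plexus sum was 32.0, 3.49 and 52.1 CPM in wild type and 63.2, 5.78 and 7.49 CPM in knockout. On the log scale it gave r = 0.741 (exact permutation p = 0.0931) and rho = 0.543 (exact permutation p = 0.297). Without wild-type replicate 2 and knockout replicate 1, the farthest from its median on the log scale, r was 0.874 over 4 libraries. All 8 oligodendrocyte markers had a knockout minus wild type value below 0 in brain, from -0.62 to -0.29, and none passed the test. Wild-type replicate 3 decided that direction: without it all 8 lay above 0, from 0.014 to 0.22, and again none passed. The part of these cells in the Trf difference was not tested.

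**Figure D2:**
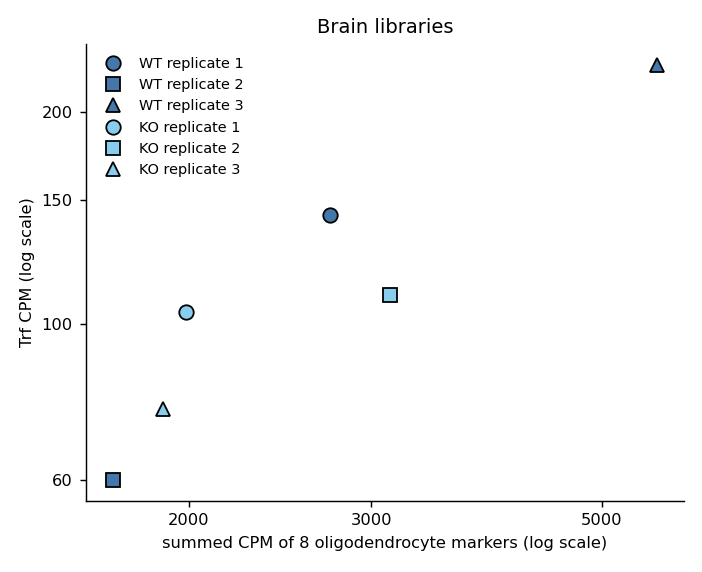
Trf CPM (vertical, log scale) against the summed CPM of 8 oligodendrocyte markers (horizontal, log scale) in the 6 brain libraries, with dark points for wild type and light points for knockout. Wild-type replicate 3 is highest on both axes (234 and 5658 CPM) and wild-type replicate 2 lowest on both (60.1 and 1689 CPM).

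Tfrc, which takes transferrin-bound iron into cells and is dense on brain capillaries and neurons, was the only one of the 10 genes called higher in brain. The brains held 78.3, 86.5 and 81.2 CPM in wild type and 84.5, 75.7 and 70.1 CPM in knockout. The livers held 19.8, 16.8 and 14.3 CPM in wild type and 13.1, 35.3 and 18.6 CPM in knockout. Every brain lay above every liver, and knockout liver replicate 2 was the highest liver, 2.13 times the mean of the other 5. Tfrc was 4.85-fold higher in brain in wild type (log2 difference 2.28 ± 0.14, edgeR adjusted p = 2.88e-06) and 3.41-fold higher in knockout (1.77 ± 0.34, edgeR adjusted p = 0.00184). Without knockout liver replicate 2 the knockout value was 2.24, and with library totals the folds were 8.68 in wild type and 6.32 in knockout. Knockout minus wild type was -0.11 ± 0.10 in brain (interval -0.34 to 0.13) and 0.41 ± 0.38 in liver (interval -0.53 to 1.35), and -0.09 in liver without knockout replicate 2. The difference between these effects was 0.49 ± 0.39 (unadjusted p = 0.235), and -0.0069 without that library.

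Fth1, the ferritin heavy chain with its ferroxidase site, had the smallest spread of the 10 genes across the livers, 1.21-fold from lowest to highest. The livers held 898, 794 and 940.3 CPM in wild type and 961, 828 and 845 CPM in knockout. The brains held 362, 386 and 521 CPM in wild type and 311, 467 and 375 CPM in knockout, all below the livers. Fth1 was 2.07-fold lower in brain in wild type (log2 difference -1.05 ± 0.17, edgeR adjusted p = 0.000714) and 2.31-fold lower in knockout (-1.21 ± 0.18, edgeR adjusted p = 0.000424; 2.41-fold without liver replicate 2). This call depended on the scaling: with library totals the difference was -0.21 in wild type (edgeR adjusted p = 0.310; 0.000189 to 0.310 over the alternatives) and -0.33 in knockout (0.106; 7.17e-05 to 0.106). Knockout minus wild type was -0.15 ± 0.21 in brain and 0.01 ± 0.12 in liver (interval -0.27 to 0.28), and 0.04 in liver without knockout replicate 2. The pseudogene row Fth-ps2 held at most 0.427% of the reads of the 2 rows in any library.

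Ftl1, the ferritin light chain, which favours the mineral core, differed between tissues far more than the heavy chain. The livers held 2147, 2050 and 2038 CPM in wild type and 1896, 1856 and 1689 CPM in knockout. The brains held 68.6, 68.4 and 67.4 CPM in wild type and 64.3, 70.9 and 78.3 CPM in knockout. Ftl1 was 30.4-fold lower in brain in wild type (log2 difference -4.92 ± 0.14, edgeR adjusted p = 8.33e-08) and 25.7-fold lower in knockout (25.8-fold without liver replicate 2). Every knockout liver lay below every wild-type liver (1814 ± 110 against 2078 ± 59.6 CPM, SD, n = 3), which made Ftl1 the only member whose genotypes did not overlap, where 9.62% of all liver genes did not overlap. The log2 difference was -0.19 ± 0.12, with unadjusted p = 0.145, an edgeR adjusted p = 0.992 and an interval from -0.46 to 0.08, and it was -0.21 without knockout replicate 2. In brain no member was without overlap, against 4.23% of all genes, and Ftl1 differed by 0.05 ± 0.10. The pseudogene row Ftl1-ps1 held 2.73% to 3.78% of the reads of the pair in brain and 0.958% to 1.55% in liver, and the deposited Ftl1 counts were fractions in every library.

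Slc40a1 encodes ferroportin, the iron exporter that hepcidin removes from the cell surface, and Kupffer cells and hepatocytes both make it. The livers held 167, 173 and 192 CPM in wild type and 185, 155 and 153 CPM in knockout. The brains held 6.07, 9.03 and 7.69 CPM in wild type and 8.21, 6.53 and 6.29 CPM in knockout. Slc40a1 was 23.2-fold lower in brain in wild type (log2 difference -4.54 ± 0.17, edgeR adjusted p = 2.62e-07) and 23.7-fold lower in knockout (24.7-fold without liver replicate 2), and the tissues did not overlap. Knockout minus wild type was -0.13 ± 0.19 in brain and -0.10 ± 0.10 in liver (interval -0.34 to 0.13), and -0.07 in liver without knockout replicate 2. In that library, where every Kupffer cell marker was highest, Slc40a1 was 155 CPM, against 153 to 192 CPM in the other 5 livers. The part of Kupffer cells in the Slc40a1 values was not tested.

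Cp, ceruloplasmin, is a copper ferroxidase that oxidizes iron as it leaves the cell, and in the liver it is an acute-phase gene. The livers held 1385, 1606 and 1423 CPM in wild type and 1501, 2556 and 1416 CPM in knockout, with knockout replicate 2 at 1.74 times the mean of the others. The brains held 12.1, 9.89 and 8.85 CPM in wild type and 11.7, 12.7 and 13.0 CPM in knockout. Cp was 142-fold lower in brain in wild type (log2 difference -7.15 ± 0.20, edgeR adjusted p = 8.33e-08) and 147-fold lower in knockout (119.8-fold without liver replicate 2). Knockout minus wild type in liver was 0.32 ± 0.24 on the log2 scale (interval -0.23 to 0.88), and -0.01 without knockout replicate 2. In brain it was 0.27 ± 0.14 (unadjusted p = 0.101, edgeR adjusted p = 1.00, interval -0.07 to 0.61), the smallest p of the members there, and the genotypes overlapped.

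**Figure D3:**
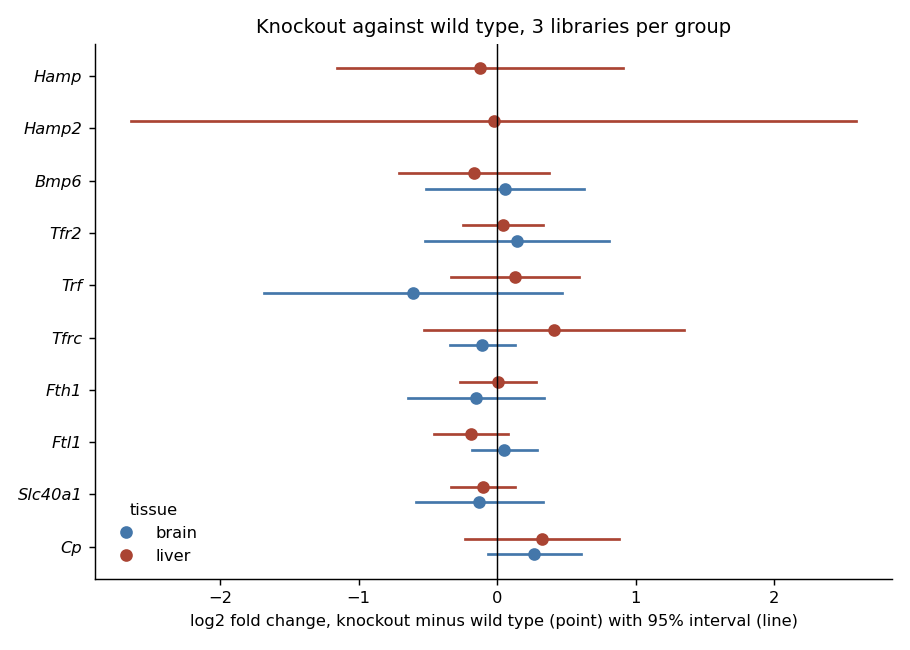
Log2 difference between knockout and wild type (points) with its 95% interval (lines) for each iron handling gene in brain and liver, 3 libraries per group. Every interval includes 0, and the widest is that of Hamp2 in liver (-2.64 to 2.59), while Hamp and Hamp2 have no brain value.

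**Figure D4:**
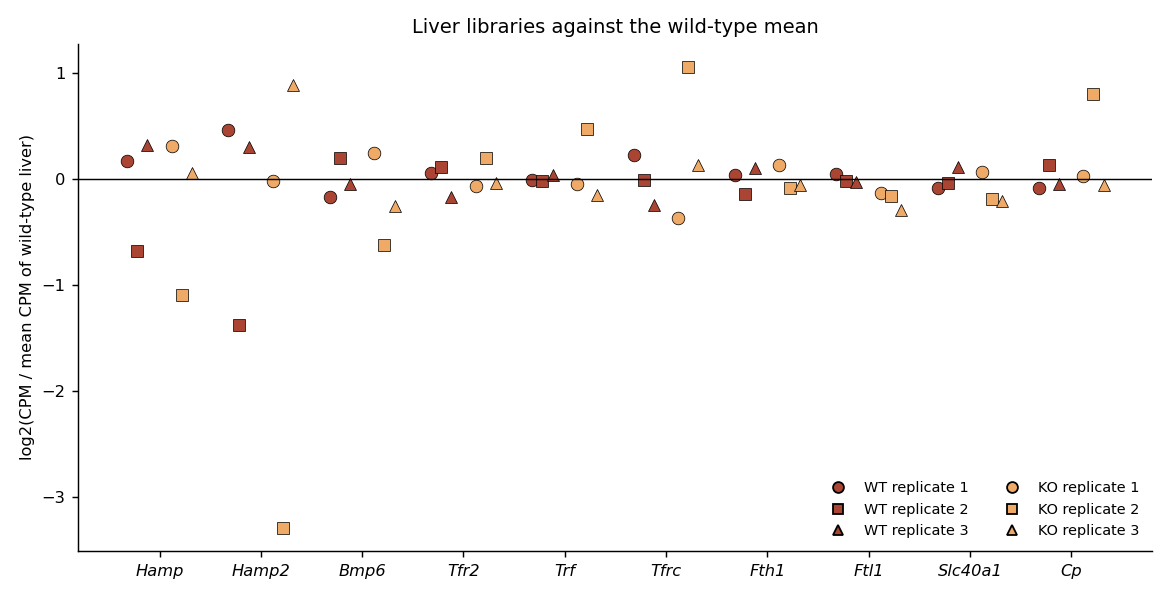
Log2 ratio of each liver library's CPM to the mean of the 3 wild-type livers, with dark points for wild type, light points for knockout and shapes for replicate numbers. Knockout replicate 2 (light square) is lowest for Hamp, Hamp2 and Bmp6 and highest for Tfr2, Trf, Tfrc and Cp, and wild-type replicate 2 (dark square) is the lowest wild type for Hamp and Hamp2.

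Divided by the length of the merged exons of all annotated transcripts, the levels of the genes can be ordered within a tissue. That length can exceed the length of the expressed mRNA: it is 583 bases for Hamp2, whose main transcript has 420, and 3469 for Fth1. The order holds for this length only, and other lengths were not tried. In liver the mean CPM per kilobase over 6 libraries was 3295 for Trf, 1452 for Ftl1, 1008 for Hamp, 253 for Fth1, 172 for Cp, 82.3 for Tfr2, 34.7 for Hamp2, 19.0 for Slc40a1, 3.18 for Tfrc and 1.43 for Bmp6. The ranges of neighbours in that order overlapped for Ftl1 and Hamp, for Fth1 and Cp, and for Hamp2 and Slc40a1. In brain it was 116 for Fth1, 52.0 for Ftl1, 36.5 for Trf, 12.8 for Tfrc, 1.28 for Bmp6, 1.19 for Cp, 0.811 for Slc40a1 and 0.537 for Tfr2, with Hamp2 and Hamp below. There Ftl1 overlapped Trf, and from Bmp6 down every gene overlapped the next. Per kilobase of merged exons the heavy ferritin chain thus led the light chain in brain, and the light chain led in liver, and in neither tissue did their ranges overlap.

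The genes around these members were grouped in 6 lists, and their tissue calls stand beside the 78.6% of all genes called in wild type (43.9% higher in brain, 34.7% in liver). The share called was 72.2% for hepcidin regulation, 64.3% for import and transport and 81% for iron-sulfur cluster assembly, which is near or below that of all genes, and 100% for the iron regulatory protein and heme lists. The acute-phase list is not set beside that share, since 15 of its 16 genes passed the filter on low counts in liver and 5 in brain. In brain 22 of 24 heme genes, 17 of 19 hepcidin regulators and 14 of 18 import and transport genes passed it. The shares of these 3 lists thus include genes, named below, whose direction the filter fixed. Of 18 hepcidin regulators tested in wild type, 2 were higher in brain, 11 were higher in liver and 5 did not pass. Tmprss6, the protease that restrains hepcidin, stood at 407 ± 11.0 CPM in liver and 0.0295 CPM in brain, below the floor, and Hfe2 (hemojuvelin, a co-receptor for bone morphogenetic proteins) at 71.4, 61.7 and 36.5 CPM in the wild-type livers and a mean of 0.617 CPM in brain. In wild type both passed the filter on low counts through liver alone, so their direction was fixed by it. The receptors Neo1 and Bmpr2 were the 2 higher in brain, by log2 differences of 1.19 and 1.00. Of 6 tested genes of iron regulatory proteins and ferritin turnover, Fbxl5, which has an iron regulatory protein degraded, was higher in brain (1.21), and the other 5 were higher in liver, among them Aco1, iron regulatory protein 1 (-3.65), and Ncoa4, the ferritin autophagy receptor (-1.72). Of 14 import and transport genes 1 was higher in brain, Cybrd1 (1.70, edgeR adjusted p = 0.0108), and 8 were higher in liver, led by the metalloreductase Steap4 (-8.19). Lcn2, which binds iron-carrying siderophores, was also higher in liver, at 3.69 ± 2.57 CPM in wild type, against 0.0821 to 0.133 CPM in the wild-type brains (edgeR adjusted p = 0.000214). In wild type Steap4 and Lcn2 passed the filter on low counts through liver alone, and Cybrd1 through brain alone. Their direction was thus fixed by the filter. With all 12 libraries in 1 fit neither Cybrd1 (edgeR adjusted p = 0.0618) nor Lcn2 (0.112) was called, and Cybrd1 was also lost without wild-type brain replicate 3 (0.0506). Of 24 heme genes 2 were higher in brain, the heme exporter Flvcr1 (1.69) and the heme transporter Slc48a1 (0.53), and 22 in liver. The scavengers Hp and Hpx reached 1454 ± 331 and 2366 ± 430 CPM in wild-type liver against means of 0.0284 and 0.113 CPM in wild-type brain, below the floor. Both passed the filter on low counts through liver alone, so their direction was fixed by it. Of 21 iron-sulfur cluster genes 2 were higher in brain, Isca1 (0.37) and Ciapin1 (0.36), 15 in liver, among them Fdx1 (-3.85), and 4 did not pass. The Ciapin1 call (edgeR adjusted p = 0.0374) was lost with DESeq2 (adjusted p = 0.0564), with its size factors (0.0519) and on leaving out any of 5 libraries (0.0672 to 0.222), and the Isca1 call (0.00821) without wild-type liver replicate 2 (0.0502). All 15 acute-phase genes tested, among them the fibrinogen chains Fga and Fgb, were higher in liver, a direction that the filter largely fixed, since most passed it through liver alone and 6 of the 16 were at 0 in every wild-type brain. The knockout tissues gave 2 and 10 of 18, 1 and 5 of 6, 0 and 7 of 15, 1 and 21 of 24, 1 and 17 of 21 and 0 and 15 of 15 for the same lists, brain first, where 78.7% of all genes were called. Without knockout liver replicate 2 they were 2 and 13 of 18, 1 and 5 of 6, 2 and 7 of 16, 1 and 21 of 24, 1 and 17 of 21 and 0 and 15 of 15, and the iron-sulfur gene higher in brain was then Ciapin1 in place of Isca1 (edgeR adjusted p = 0.0679). With library totals the wild-type counts were 8 and 7 of 18, 1 and 3 of 6, 6 and 8 of 14, 3 and 17 of 24, 4 and 12 of 21 and 0 and 15 of 15, and the knockout counts 8 and 7 of 18, 1 and 3 of 6, 4 and 7 of 15, 2 and 16 of 24, 4 and 10 of 21 and 0 and 15 of 15. The small brain-higher counts also moved with 1 library left out. For import and transport in wild type they were 3 without brain replicate 2 and 2 without each of the livers, and in knockout 2 without liver replicate 1 or 2 and 1 without liver replicate 3 or brain replicate 2 or 3. For iron-sulfur genes in wild type they were 0 without liver replicate 2 and 1 without liver replicate 1 or 3 or brain replicate 2 or 3, and in knockout 0 without brain replicate 2. For heme genes in knockout there were 2 without brain replicate 1.

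None of the genes in these lists passed the adjusted threshold between knockout and wild type in brain or liver, and none did for the interaction. The gene of smallest unadjusted p in each brain list was Atoh8 (0.71 ± 0.38), Aco1 (-0.17 ± 0.10), Heph (-0.34 ± 0.37), Abcb10 (-0.29 ± 0.11), Glrx5 (-0.27 ± 0.16) and Il6st (-0.12 ± 0.15), and Abcb10, a mitochondrial transporter used in heme synthesis, was the only 1 under 0.05 (unadjusted p = 0.0376, edgeR adjusted p = 1.00). In liver they were Tmprss6 (-0.19 ± 0.09), Fbxl5 (-0.06 ± 0.11), Lcn2 (4.80 ± 2.35), Flvcr2 (-0.49 ± 0.18), Fdxr (-0.32 ± 0.13) and Crp (0.27 ± 0.14). Flvcr2, a transporter of the heme exporter family, had unadjusted p = 0.0253 and Fdxr, the ferredoxin reductase, 0.0466, each with an edgeR adjusted p = 0.992. Without knockout replicate 2 the values were -0.14 for Tmprss6, -0.03 for Fbxl5, -0.47 for Flvcr2 (unadjusted p = 0.0577), -0.26 for Fdxr (0.126) and 0.13 for Crp, and again none of the listed genes was called. The Lcn2 value came from knockout replicate 2, at 301 CPM against 1.16 to 6.63 CPM in the other livers, and it was -0.74 without that library. The interaction had its smallest p in the lists at Smad9, Aco1, Slc11a1, Flvcr2 (-0.87 ± 0.27, unadjusted p = 0.00788), Bola3 and Fgg, with an edgeR adjusted p of 1.00 for each.

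**Figure D5:**
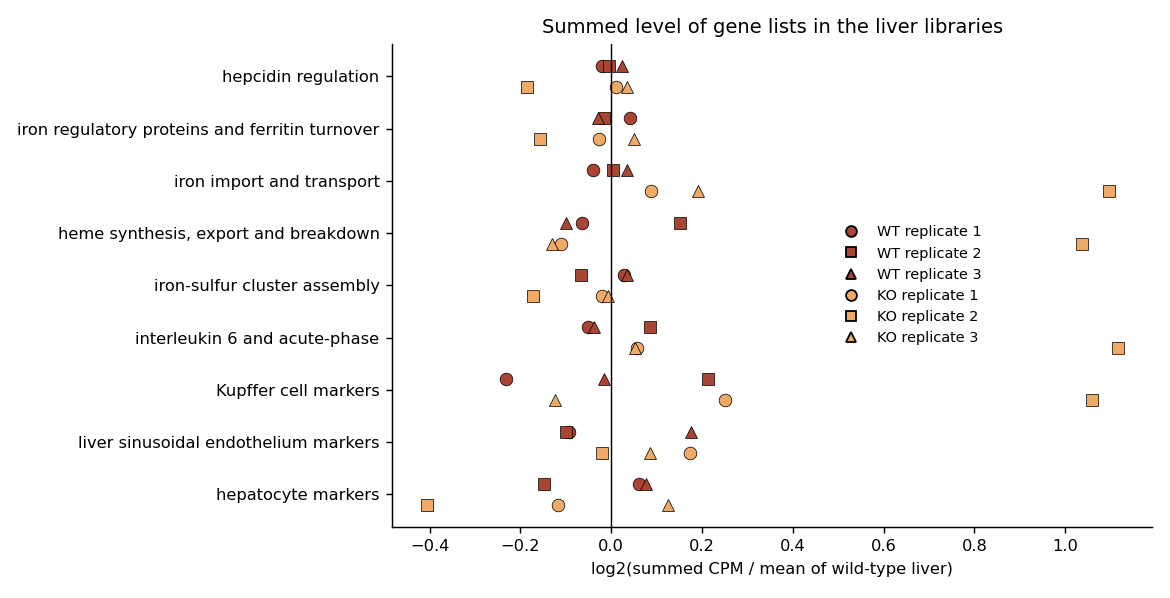
Log2 ratio of the summed CPM of each gene list in a liver library to the mean of the 3 wild-type livers. Knockout replicate 2 (light square) lies furthest right for import and transport, heme, acute-phase genes (32130 CPM against 14301 to 15733) and Kupffer cell markers (519 CPM against 212 to 296), and furthest left for hepcidin regulation, iron regulatory proteins and ferritin turnover, iron-sulfur cluster assembly and hepatocyte markers.

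The liver genes most like Hamp over the 6 livers, by Pearson correlation of log2(CPM + 1) among 13924 genes, were Gm38021 (r = 0.996, 0.395 to 1.57 CPM), Snx9 (r = 0.996, 55.5 to 69.4 CPM) and Adcy5 (r = 0.994, 3.33 to 6.10 CPM). Among the brain genes most like Trf, of 15937 compared, were Fgfr2 (r = 0.994, 28.8 to 64.2 CPM) and Daam1 (r = 0.993, 69.5 to 87.1 CPM). These were among the highest correlations of all genes compared, over 6 libraries that share their library, depth and cell makeup, and they are given as a description.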

How the data were processed

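Total RNA was sequenced in 12 mouse brain and liver libraries. Per the labels' protocols, ribosomal RNA was depleted and stranded libraries were read single-end. The authors deposited expected counts per gene, not normalized; 5.06% to 5.71% of values per library are not whole. The submitters' processing notes name cutadapt, STAR and mm10; how reads were assigned to genes, and whether by strand, is not given in the sources used here. Cp, Bmp6, Ftl1 and Hamp2 overlap exons of a gene on the other strand. All 55450 identifiers matched GENCODE M21 (GRCm38).

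Counts were rounded and tested with edgeR 4.0.16 (R 4.3.3; quasi-likelihood F-test, robust, TMM, filterByExpr with minimum count 10 and total 15), each comparison on its own 6 libraries and the interaction on 12, with Benjamini-Hochberg adjustment over all genes at 0.05. SE is the log2 difference divided by the root of F, and intervals are 95%. Counting intervals and the floor of 3 counts cover counting error only. The fit was checked on simulated data. DESeq2 1.42.0, other scalings, filters and fits, summed copies and left-out libraries were alternatives. No 2 libraries agreed within sampling noise. Same-numbered knockout and wild-type livers deviated together (correlations 0.29, 0.32 and 0.37 across 13925 genes), but the labels do not give a pairing. Standard errors, intervals and p-values therefore come from fits without the number, except where a block is named. With the number as a block 2 genes were called in liver in place of 0, neither an iron gene.

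The members and lists were chosen with earlier results of these data known. Named genes are all 10 members; of each list, called genes or the smallest p (knockout), or the 2 largest called differences per direction (tissue); and the 3 genes most like Hamp and Trf. Some genes that this rule names are not reported here.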

Additional observations from a re-analysis of the deposited data

How the results depend on the processing

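Across the alternatives 0 iron genes were called between genotypes, and the 9 called between tissues kept their direction in all of them and their call in all but Fth1 with library totals. Of 228 genotype and tissue differences of the 10 genes with 1 library left out, 21 had the opposite sign, as had 5 of 353 under the other alternatives, and none of these was a difference called in the report. The interaction had the opposite sign in 14 of 120 values with 1 library left out (Tfrc, Tfr2, Slc40a1, Fth1 and Cp) and in 2 of 89 others (Slc40a1 with library totals, Cp with the replicate block). The uncalled genotype differences of brain Tfrc, Trf and Cp and of liver Ftl1 and Slc40a1 kept their sign throughout. Without 1 library at a time, knockout minus wild type ran in brain from -0.040 to 0.40 for Tfr2, -0.27 to 0.016 for Slc40a1, -0.30 to 0.037 for Fth1, -0.022 to 0.12 for Ftl1 and -0.12 to 0.25 for Bmp6. In liver it ran from -0.38 to 0.19 for Hamp, -0.90 to 0.51 for Hamp2, -0.094 to 0.69 for Tfrc, -0.054 to 0.11 for Tfr2, -0.066 to 0.058 for Fth1, -0.10 to 0.24 for Trf, -0.40 to 0.010 for Bmp6 and -0.014 to 0.47 for Cp. Brain minus liver in knockout ran from -0.27 to 0.18 for Bmp6, and the Tfrc interaction from -0.0069 to 0.76. With library totals liver Tfr2 was -0.00073 and Fth1 -0.034, Bmp6 between tissues 0.57 in wild type and 0.81 in knockout, and with no filter liver Fth1 was -0.0012. The cause was not tested. Over all genes, the calls in liver went from 0 to 10 with DESeq2, 4 with no filter, 2 with the replicate block and 0 to 1 without 1 library (1 without wild-type replicate 2). For the interaction they went from 0 to 1 with DESeq2 and 2 with the replicate block. The replicate block changed no call of an iron gene. Same-numbered brains correlated at 0.71, 0.69 and -0.03, and brain with liver at 0.03 to 0.05, so the numbers were not taken to pair these libraries. For the brains, as for the livers, a pairing is unsettled. In brain, depth limits Hamp and Hamp2, which lay at or under the floor of 3 counts except for Hamp2 in 1 library.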

Other observations

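Other genes of the lists also held a match to the iron-responsive element: Alas2, the erythroid enzyme that starts heme synthesis, in its 5′ UTR and Bola3, an iron-sulfur cluster factor, in the 3′ UTR of 1 transcript. Alas2 was at 84.4 to 122 CPM in the livers and 1.52 to 3.02 CPM in the brains, 43.2-fold lower in wild-type brain (edgeR adjusted p = 3.51e-07) and 45.2-fold lower in knockout brain. Bola3 was 3.93-fold lower in wild-type brain (edgeR adjusted p = 1.04e-05) and 4.89-fold lower in knockout brain. Neither passed the test between genotypes, with log2 differences of 0.13 ± 0.14 (Alas2) and 0.14 ± 0.08 (Bola3) in liver.

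Lcn2 was highest in knockout replicate 2 in both tissues, at 4.45 CPM in brain against 0.0821 to 0.445 CPM in the other 5 brains, and at 301 CPM in liver against 1.16 to 6.63 CPM. Ltf, lactoferrin, was also highest in that brain, at 2.12 CPM against 0.164 to 0.445 CPM. These genes were singled out after their values were seen, and the labels do not say whether the libraries share an animal.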
